A study of Homo sapiens with 15 samples.

Results

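The HSP70 family of chaperones was followed through exon junction complex (EJC) footprints and RNA-seq in HEK293 Flp-In TRex, an embryonic kidney line of human origin built for stable integration of a transgene. The members were the 9 genes HSPA1A, HSPA1B, HSPA8, HSPA9, HSPA13, HSPA14, HSPA4, HSPA4L and HSPH1, matched by symbol in the deposited exon table, out of 44786 symbols. The symbols covered 17 of 49948 transcripts and 112 of 279143 exons, and 9 of the 17 transcripts, 1 for each gene, held at least 1 count. HSPA1A and HSPA1B have 1 exon and no intron, and the other 7 genes are spliced, with 101 exons in all.

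Footprints came from RIPiT, in which RNA protected from RNase I is purified first through the FLAG tag of an EJC protein and then with an antibody against another EJC protein, and the deposited values were read counts per exon and per transcript. Cells with FLAG-CASC3 or FLAG-RNPS1 were crosslinked with 0.1% formaldehyde for 10 min, lysed under denaturing conditions and purified with anti-EIF4A3, with or without cycloheximide at 100 µg/ml for 3 h before harvest, which made 4 groups of 2 libraries, A and B. Native footprints, from cells lysed without crosslinking or denaturation, held 5 protein pairs with 1 library each, named with the tagged protein first. They were MAGOH-RNPS1, MAGOH-CASC3 and the 3 pairs purified through EIF4A3 in the second step, RNPS1-EIF4A3, CASC3-EIF4A3 and MAGOH-EIF4A3. A further 2 libraries, A and B, held RNA-seq of cells with no tagged protein, depleted of ribosomal RNA and fragmented by base hydrolysis. The tagged proteins are stably expressed transgenes, and FLAG-CASC3 and FLAG-RNPS1 are different lines, so protein and line cannot be told apart. Whether A and B came from separate cultures is not stated in the labels, and the p-values reflect the spread of these libraries alone, which may be technical.

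HSP70 proteins bind and release unfolded stretches of other proteins in a cycle driven by ATP, which J-domain proteins start and nucleotide exchange factors reset. The EJC is laid down by splicing just upstream of exon junctions, travels with the messenger RNA to the cytoplasm, and is removed by the first ribosomes that translate it. EIF4A3, MAGOH and RBM8A form its core, and CASC3 and RNPS1 are peripheral proteins found in different complexes. Cycloheximide blocks translation elongation, so the comparison with and without it addresses footprints on RNA whose translation was stopped. An intronless RNA has no junction on which splicing could lay down an EJC.

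HSPA1A (chr6:31815464-31817946, hg38, plus strand, 2483 nt) and HSPA1B (chr6:31827735-31830255, plus strand, 2521 nt) encode the stress-inducible HSP70 of the cytosol. In GENCODE 29 their coding sequences were 1926 nt each with 4 mismatches, an identity of 99.8%. Counted from the start codon, with the HSPA1A base first, the substitutions were G1710T, G1860C, C1905T and A1920G. The stretch around the first of these (chr6:31817451-31817481 in HSPA1A, chr6:31829645-31829675 in HSPA1B) is shown because it is where the coding sequences can first be told apart, with the differing base in capitals.
HSPA1A: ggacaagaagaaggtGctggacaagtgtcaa
HSPA1B: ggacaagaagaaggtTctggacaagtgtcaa
Of the 30-base words of each transcript, 74.4% in HSPA1A and 74.5% in HSPA1B also occurred in a transcript of another gene. HSPA1A had 1 count in 4 libraries (crosslinked RNPS1 A, RNPS1 with cycloheximide A, native RNPS1-EIF4A3 and native MAGOH-CASC3) and 0 in the other 11, both RNA-seq libraries included. In RNA-seq a floor of 3 counts comes to 2.62 CPM, which is the count scaled to the total of its library, in library A and 2.53 CPM in library B. HSPA1B had 31 to 393 counts in the 15 libraries. How reads common to both genes were assigned is not given in the sources used here, so the HSPA1B count may hold reads of both, and HSPA1A was not tested.

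The spliced members carry their last junction inside the coding sequence, 50 bases of which are shown up to that junction because the results on exon use below concern the exons that meet there. Capitals mark the bases 28 to 20 upstream of the junction, around the place where an EJC is known to sit. All 7 windows lie within the coding sequence of GENCODE 29, in hg38.
HSPA8 (exon 8 of 9, chr11:123058252-123058301, minus strand): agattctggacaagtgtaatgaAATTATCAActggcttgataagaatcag
HSPA9 (exon 16 of 17, chr5:138556452-138556501, minus strand): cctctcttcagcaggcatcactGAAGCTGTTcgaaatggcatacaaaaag
HSPA13 (exon 4 of 5, chr21:14375652-14375701, minus strand): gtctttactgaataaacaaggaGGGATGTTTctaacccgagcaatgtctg
HSPA14 (exon 13 of 14, chr10:14870618-14870667, plus strand): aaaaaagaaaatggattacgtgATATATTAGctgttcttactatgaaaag
HSPA4 (exon 18 of 19, chr5:133103977-133104026, plus strand): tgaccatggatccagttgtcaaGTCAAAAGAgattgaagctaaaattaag
HSPA4L (exon 18 of 19, chr4:127830750-127830799, plus strand): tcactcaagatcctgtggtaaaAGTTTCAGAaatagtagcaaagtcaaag
HSPH1 (exon 17 of 18, chr13:31138407-31138456, minus strand): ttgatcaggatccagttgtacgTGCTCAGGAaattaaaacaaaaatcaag
HSPA4, HSPA4L and HSPH1, the HSP110-type members that act as nucleotide exchange factors, have a penultimate exon of 162 nt each. Counted inward from both ends, HSPA4 and HSPA4L shared the lengths of 10 internal exons from the 5′ end and 4 from the 3′ end. HSPA4 and HSPH1 shared 6 and 4, and HSPA4L and HSPH1 shared 6 and 5. Words of 30 bases shared with another gene made up 42.6% of HSPA8, 18.4% of HSPA9, 8.40% of HSPA4L, 0.521% of HSPA4, 0.368% of HSPH1 and 0 in HSPA13 and HSPA14, so HSPA8 counts in particular could have lost or gained reads through near-identical copies.

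Total counts ran from 467741 in RNPS1 with cycloheximide B to 8057700 in CASC3 with cycloheximide A, and the other libraries lay between 794010 and 7251722. LIN28B, VIM and NES were checked in RNA-seq as genes of the cell line. In libraries A and B, LIN28B had 92.5 and 108 CPM, VIM 1035 and 1009 CPM and NES 1.75 and 5.07 CPM, from 2 and 6 counts. Among genes of other lineages, the fibroblast gene COL1A1 had 8.73 and 9.29 CPM, and the leukocyte gene PTPRC and the hepatocyte gene ALB were at 0. NES thus lay below COL1A1. A pair of libraries stood apart for the family. In crosslinked CASC3 B the intronless members held 55.7% of family counts, and RNPS1 with cycloheximide B had the lowest depth, with 2 to 87 counts for each spliced member.

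**Figure D1:**
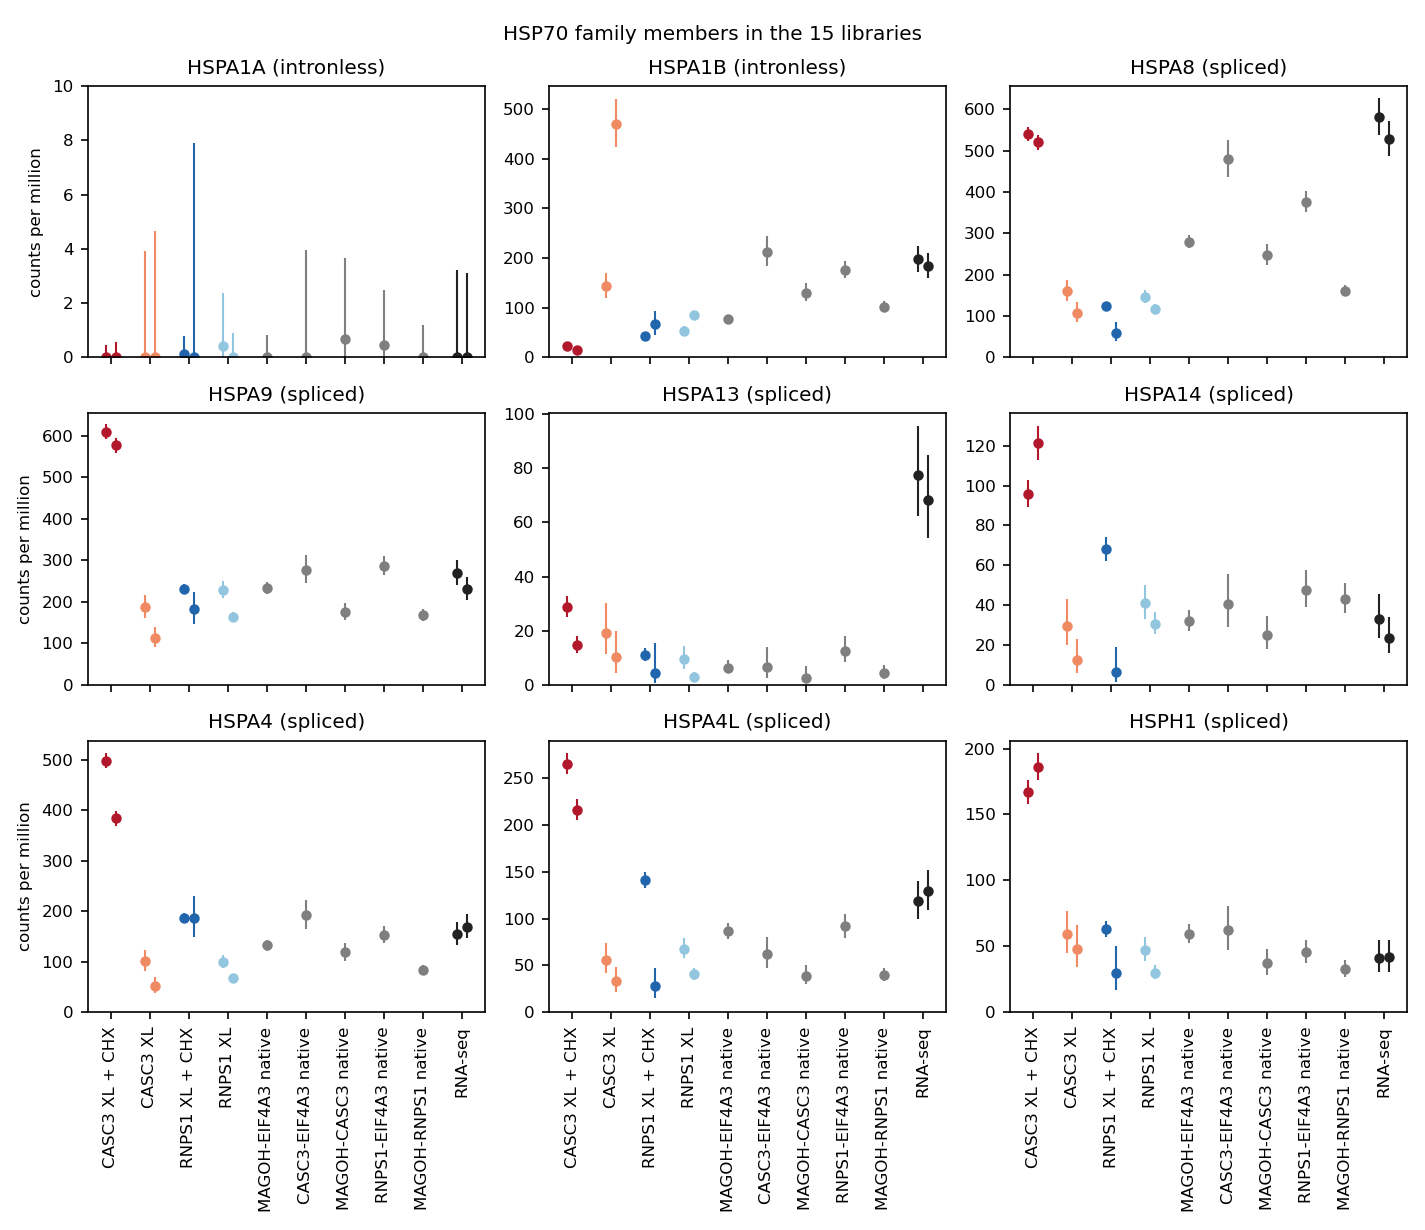
CPM of the 9 members in the 15 libraries, with exact 95% Poisson intervals that cover counting error only; XL is crosslinked and CHX is cycloheximide, each point is 1 library, and the vertical scale differs between panels. HSPA8, HSPA9, HSPA4, HSPA4L, HSPA14 and HSPH1 were higher in both CASC3 libraries with cycloheximide (dark red) than in both without it (orange), and HSPA1B was lower in both.

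The intronless HSPA1B fell while 6 of the 7 spliced members rose when cycloheximide was added to crosslinked CASC3 cells. HSPA1B had 21.8 and 15.2 CPM in CASC3 libraries A and B with cycloheximide, against 143 and 471 CPM in CASC3 libraries A and B without it. The groups did not overlap, but the untreated libraries differed more than 3-fold between themselves. HSPA1B fell, with a log2 fold change of -3.94 ± 0.64 (SE, adjusted p = 0.00187, edgeR quasi-likelihood test with Benjamini-Hochberg adjustment), which was below that of all but 2.03% of tested transcripts. Without crosslinked CASC3 B, the higher of the untreated pair, the log2 fold change was -2.60 and the call stood (adjusted p = 0.0414).

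Expressed as a share of family counts, HSPA1A and HSPA1B together held 0.980% (95% Clopper-Pearson interval 0.841 to 1.14) and 0.748% (0.610 to 0.907) in CASC3 libraries A and B with cycloheximide, against 19.0% (16.1 to 22.0) and 55.7% (51.8 to 59.5) in those without it. In RNPS1 libraries A and B the share was 4.90% and 11.8% with cycloheximide, against 7.62% and 15.8% without it. Those 4 RNPS1 values interleave. Native footprints held 8.44% to 16.9% and RNA-seq 13.4% and 13.3%, so footprints in treated CASC3 cells had the lowest intronless share of all groups. Per kilobase of exon, the ratio of the HSPA1B level to the HSPA8 level was 0.0395 and 0.0286 in CASC3 with cycloheximide, against 0.874 and 4.25 in CASC3 without it, and was 0.332 and 0.339 in RNA-seq.

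**Figure D2:**
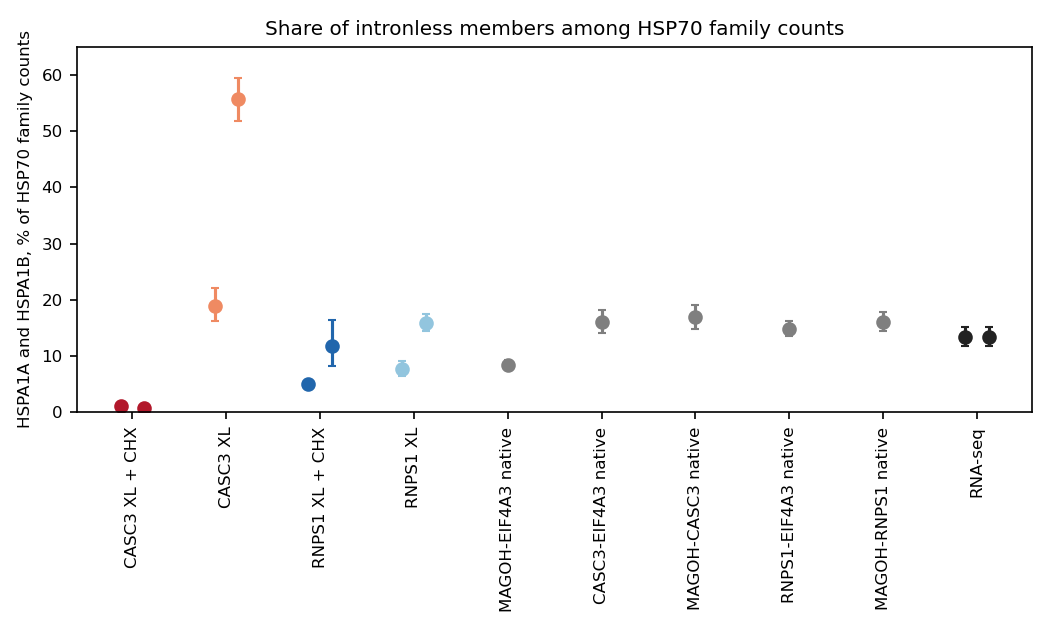
Share of HSPA1A and HSPA1B among all HSP70 family counts, in percent, with exact 95% binomial intervals that cover counting error only; each point is 1 library, XL is crosslinked and CHX is cycloheximide. The treated CASC3 libraries lie under 1%, while crosslinked CASC3 B lies at 55.7%.

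Of the 7 spliced members, 6 rose with cycloheximide in crosslinked CASC3 and none fell, with a median log2 fold change of 2.22 against 0.06 over all 14297 tested transcripts. Over all transcripts, 16% were called higher and 15.8% lower. HSPA8, the constitutive cytosolic HSP70 that also strips clathrin from vesicles, had 540 and 520 CPM in CASC3 libraries A and B with cycloheximide, against 160 and 108 CPM in those without it. HSPA9, or mortalin, the HSP70 of the mitochondrial matrix, had 610 and 577 CPM with cycloheximide, against 186 and 112 CPM without it. Both genes had groups that did not overlap and rose, by 2.20 ± 0.47 for HSPA8 and 2.22 ± 0.45 for HSPA9 on the log2 scale (SE, adjusted p = 0.00522 and 0.00429 in the edgeR test).

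The HSP110-type members rose as well. HSPA4 had 499 and 384 CPM in treated CASC3 libraries A and B, against 101 and 51.6 CPM in untreated ones, the largest rise among the spliced members at 2.76 ± 0.46 (log2, SE, edgeR adjusted p = 0.00208). HSPA4L, its close relative, had 266 and 216 CPM with cycloheximide, against 56.1 and 32.7 CPM without it. HSPH1, the inducible HSP105, had 167 and 186 CPM with cycloheximide, against 59.3 and 47.9 CPM without it. None of the 3 overlapped between the groups, and HSPA4L and HSPH1 rose by 2.65 ± 0.61 and 1.94 ± 0.47 (log2, SE, edgeR adjusted p = 0.00700 and 0.00864). With 2 libraries per group, lack of overlap says little for these or the other members. Its share over all transcripts was not counted.

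HSPA14, which forms the ribosome-associated complex with the J-domain protein DNAJC2, had 95.9 and 121 CPM in treated CASC3 libraries A and B, against 29.7 and 12.6 CPM in untreated ones. Its groups did not overlap, and it rose by 2.60 ± 0.69 (log2, SE, edgeR adjusted p = 0.0135). HSPA13, a microsomal ATPase that lacks the substrate-binding domain, had 28.8 and 14.6 CPM with cycloheximide, against 19.1 and 10.1 CPM without it. Its groups overlapped, and the log2 fold change of 0.76 ± 0.62 did not pass (edgeR adjusted p = 0.361). Without crosslinked CASC3 B, none of the 6 spliced members kept its call, with log2 fold changes of 1.96 to 2.49 and edgeR adjusted p of 0.0589 to 0.145, and 356 transcripts were called in place of 4551. HSPH1 and HSPA14 also lost the call without crosslinked CASC3 A (edgeR adjusted p = 0.0637 and 0.0509) and without treated CASC3 B (0.0742 and 0.0915), and HSPA14 without treated CASC3 A (0.0514). RNA-seq of treated cells was not analysed here, so more RNA and more footprints per RNA cannot be told apart.

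In crosslinked RNPS1 the same treatment gave no call among the 8 tested members, against 0.021% of all tested transcripts (3 transcripts, edgeR), and DESeq2 called 126 transcripts and none of the members. HSPA1B had 42.3 and 66.3 CPM in RNPS1 libraries A and B with cycloheximide, against 52.3 and 84.9 CPM in those without it, and its groups overlapped (log2 fold change -0.40 ± 0.59, SE). HSPA8 had 124 and 59.9 CPM with cycloheximide, against 147 and 117 CPM without it, which also overlapped. HSPA4 had 186 CPM in both treated libraries, against 99.1 and 67.3 CPM in untreated ones, groups that did not overlap, but its log2 fold change of 1.19 ± 0.44 did not pass (edgeR adjusted p = 0.286, unadjusted p = 0.0156). It was the only member with an unadjusted p under 0.05 here. The 2 treated libraries differed in depth and in members: HSPA4L had 141 CPM in A and 27.8 CPM in B, and HSPA14 had 68.0 CPM in A and, from 3 counts, 6.41 CPM in B. Without RNPS1 with cycloheximide B, HSPA4L passed (log2 fold change 1.37, edgeR adjusted p = 0.0261), and 2033 transcripts were called.

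The difference between the cycloheximide effects in CASC3 and in RNPS1 was tested as an interaction and gave 0 calls among 14297 transcripts, or 0%, in edgeR. At an unadjusted p under 0.05 stood 7 of the 8 members in edgeR. The share of all transcripts at that threshold was not worked out, so this count cannot be judged. DESeq2 called 390 transcripts, 3 of them members. HSPA1B had an interaction of -3.54 ± 0.84 and HSPA8 of 2.66 ± 0.65 (log2, SE, edgeR adjusted p = 0.111 for each). HSPA9, HSPA14, HSPA4L, HSPA4 and HSPH1 had interactions of 2.11, 2.33, 1.89, 1.57 and 1.56, and HSPA13 of 0.05. Without treated RNPS1 A the interaction was -3.84 for HSPA1B and 3.34 for HSPA8, and without treated RNPS1 B it was -3.15 and 2.35. The first of these fits rests, for treated RNPS1, on library B alone, where HSPA13 had 2 counts and HSPA14 had 3. Without crosslinked CASC3 A the interaction of HSPA1B was -4.22.

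**Figure D3:**
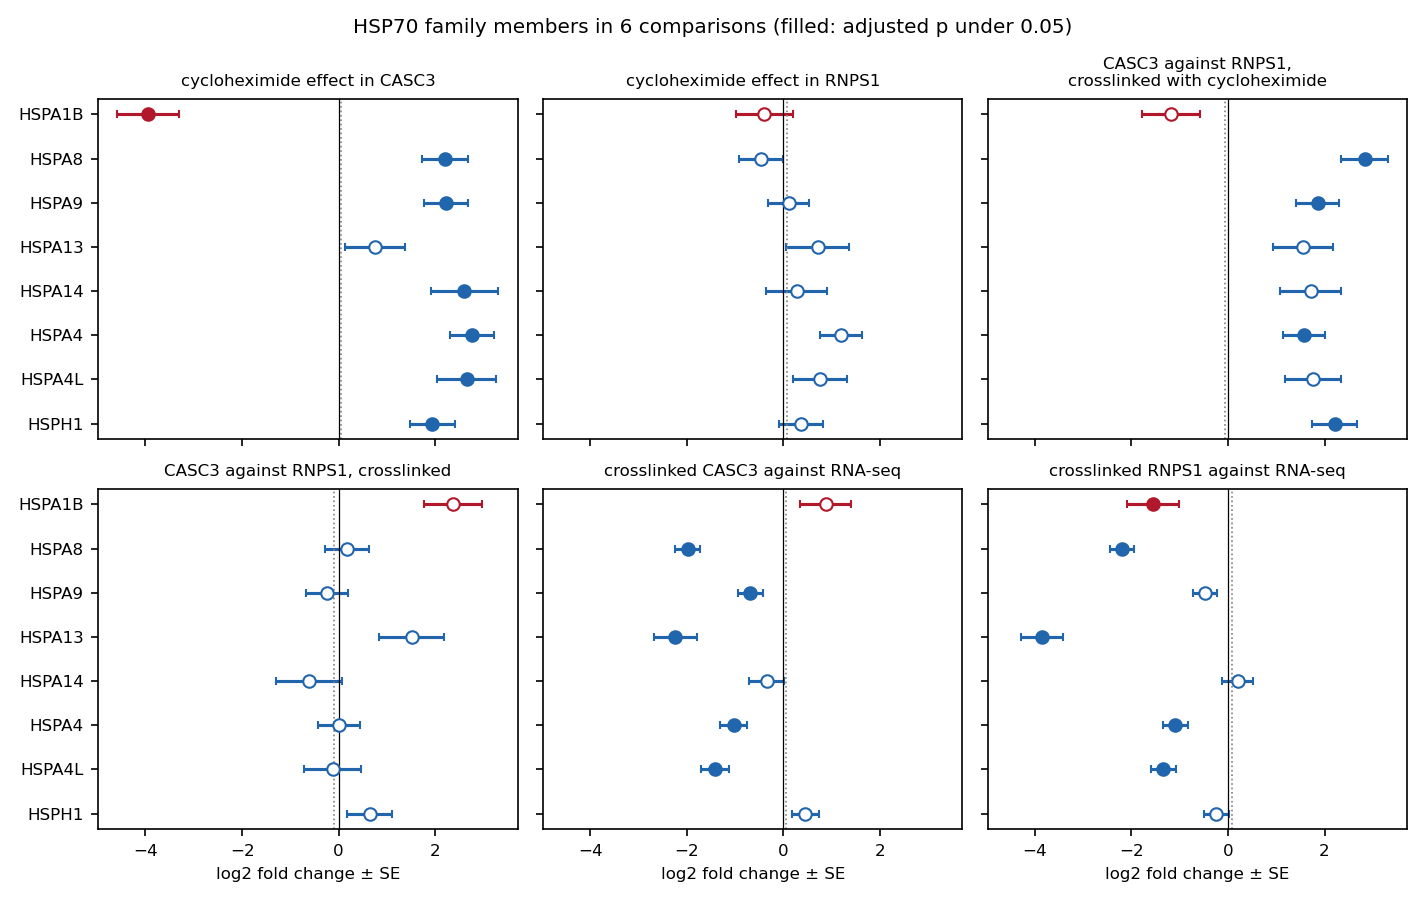
Log2 fold change of the 8 tested members in 6 comparisons, with standard errors; the intronless HSPA1B is red, the spliced members are blue, filled points passed an adjusted p under 0.05 in edgeR, and the dotted line is the median of all tested transcripts. HSPA1B and the spliced members lie on opposite sides of 0 for cycloheximide in CASC3 and for CASC3 against RNPS1 with cycloheximide.

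Between the treated proteins, 4 spliced members were higher in CASC3 than in RNPS1, against 6.42% of all tested transcripts higher and 7.69% lower. From the treated libraries given above, HSPA8 was higher by 2.83 ± 0.48, HSPH1 by 2.21 ± 0.47, HSPA9 by 1.86 ± 0.44 and HSPA4 by 1.58 ± 0.44 (log2, SE, edgeR adjusted p = 0.00907, 0.0146, 0.0200 and 0.0309). HSPA4L, HSPA14 and HSPA13 had log2 fold changes of 1.77, 1.71 and 1.56 that did not pass (edgeR adjusted p = 0.0532, 0.0799 and 0.0972). HSPA1B was the only member with a negative value, -1.18 ± 0.60, which did not pass either (edgeR adjusted p = 0.180). No member and no transcript was called when only these 2 groups were fitted, and no member when either treated CASC3 library was left out. HSPA4 also lost its call without crosslinked CASC3 B, RNPS1 A or RNPS1 B (log2 fold changes of 1.59 to 1.64). Without treated RNPS1 A, HSPA14, HSPA4L and HSPA13 had log2 fold changes of 4.46, 3.47 and 2.67. That fit sets treated CASC3 against RNPS1 with cycloheximide B alone, which had 3, 13 and 2 counts for these genes.

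Without cycloheximide, no member differed between crosslinked CASC3 and crosslinked RNPS1 in the edgeR test, against 0.56% of all tested transcripts called. HSPA1B had 143 and 471 CPM in CASC3 libraries A and B, against 52.3 and 84.9 CPM in RNPS1 libraries A and B. The groups did not overlap, and the log2 fold change was 2.36 ± 0.60 (SE, edgeR adjusted p = 0.114, unadjusted p = 0.00132). HSPA1B passed in DESeq2 (adjusted p = 0.00602) and without the filter on low counts (edgeR adjusted p = 0.00137), and its log2 fold change was 1.06 without crosslinked CASC3 B. It passed without crosslinked CASC3 A (3.09, edgeR adjusted p = 0.0243) and without treated RNPS1 A or B (2.36 and 2.39, edgeR adjusted p = 0.00826 and 0.00317). The spliced members ran from -0.61 for HSPA14 to 1.51 for HSPA13 (unadjusted p = 0.0419), with a median of 0.01 against -0.09 over all transcripts. HSPA8 and HSPA9 differed by 0.17 ± 0.46 and -0.25 ± 0.43 (log2, SE), and their groups overlapped.

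Against RNA-seq, 5 spliced members were lower in crosslinked CASC3 and 4 in crosslinked RNPS1, against 24.1% and 29.6% of the 12379 transcripts tested. HSPA8 had 160 and 108 CPM in crosslinked CASC3 and 147 and 117 CPM in crosslinked RNPS1, against 581 and 529 CPM in RNA-seq libraries A and B. HSPA8 was lower, with log2 fold changes of -1.98 ± 0.26 in CASC3 and -2.19 ± 0.25 in RNPS1 (SE, edgeR adjusted p = 0.000272 and 6.87e-05). HSPA13 had 19.1 and 10.1 CPM in CASC3 and 9.35 and 2.65 CPM in RNPS1, against 77.7 and 68.4 CPM in RNA-seq. Neither gene overlapped between footprints and RNA-seq, and HSPA13 showed the largest deficit of the family, at -2.24 ± 0.45 in CASC3 and -3.85 ± 0.43 in RNPS1 (log2, SE, edgeR adjusted p = 0.00225 and 6.31e-05).

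HSPA4L and HSPA4 were also lower than in RNA-seq with both proteins, at -1.41 and -1.03 in CASC3 and -1.34 and -1.09 in RNPS1 (log2, edgeR adjusted p of 0.00122 to 0.00999). These values cover whole transcripts, last exon included. Between the first and last exon, HSPA4L had 21.5 and 10.2 CPM per kilobase in CASC3 A and B and 23.2 and 13.9 in RNPS1. RNA-seq A and B had 18.1 and 18.6 there, so HSPA4L interleaved. HSPA4 stayed lower, with 36.9 and 14.8 in CASC3 and 36.1 and 24.5 in RNPS1, against 46.2 and 47.4. The part of the last exon was not tested. HSPA9 was lower in CASC3 (-0.68 ± 0.26, SE, edgeR adjusted p = 0.0455) and did not pass in RNPS1 (-0.48, edgeR adjusted p = 0.114). Between its first and last exon it had 76.0 and 51.6 CPM per kilobase in CASC3, which interleaved with 82.6 and 67.8 in RNA-seq. HSPH1 and HSPA14 passed in neither, with values from -0.35 to 0.46. Without crosslinked CASC3 B, neither HSPA9 (-0.49) nor HSPA4 (-0.76) passed in CASC3, and without either RNA-seq library HSPA9 did not pass, nor did HSPA4 without RNA-seq B (edgeR adjusted p of 0.0647 to 0.260). The intronless HSPA1B had 52.3 and 84.9 CPM in crosslinked RNPS1, against 197 and 183 CPM in RNA-seq libraries A and B, and was lower, at -1.55 ± 0.54 (log2, SE, edgeR adjusted p = 0.0286). In crosslinked CASC3 it had a log2 fold change of 0.88 ± 0.54 (edgeR adjusted p = 0.192), leaving out CASC3 B turned it to -0.48, and leaving out CASC3 A gave 1.55, which passed (edgeR adjusted p = 0.0148). The RNPS1 call was lost without crosslinked RNPS1 A (-1.14) and without either RNA-seq library (edgeR adjusted p of 0.0626 to 0.182). The tests against RNA-seq share the RNA-seq libraries. Library preparation differed between footprints and RNA-seq, and its part in these differences was not tested.

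In the 5 native footprint libraries, which have no replicates, the log2 ratio of CPM to the mean of RNA-seq placed HSPA1B between -1.31 in MAGOH-EIF4A3 and 0.16 in CASC3-EIF4A3. The median of 215 single-exon coding transcripts ran from -2.35 to -0.62 in the same libraries and that of 11240 multi-exon ones from 0.11 to 0.38, so HSPA1B lay above the single-exon median in all 5. HSPA13 had the lowest ratios, -4.48 to -2.48, and HSPA8 had -1.78 to -0.21. HSPA14 lay at -0.16 to 0.75 and HSPH1 at -0.32 to 0.58, near the multi-exon median. For the native pair CASC3-EIF4A3 over RNPS1-EIF4A3, the log2 ratio was 0.34 for HSPA8 (95% counting interval 0.18 to 0.51) and 0.27 for HSPA1B (0.02 to 0.52), with a median of -0.11 over all transcripts. For MAGOH-CASC3 over MAGOH-RNPS1 it was 0.62 for HSPA8 (0.43 to 0.82), 0.36 for HSPA1B (0.10 to 0.62) and -0.77 for HSPA14 (-1.34 to -0.26), with a median of -0.02. In native libraries the intronless and the constitutive HSP70 thus had ratios of the same sign. For CASC3-EIF4A3 over RNPS1-EIF4A3 the median of single-exon coding transcripts was 0.25, so HSPA1B lay near its class. For MAGOH-CASC3 over MAGOH-RNPS1 that median was -0.003, below HSPA1B.

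Cofactors of HSP70 and other intronless genes were read from the same fits. Of 29 tested co-chaperones, 5 rose with cycloheximide in CASC3 and none fell, against 16% of all transcripts higher and 15.8% lower, so the count that rose was near the share over all transcripts. The median was 0.69 against 0.06 over all transcripts, and among the 5 were the J-domain genes DNAJC2 (2.41), DNAJC7 (2.38), DNAJA2 (2.11) and DNAJA1 (1.74). DNAJC2 is the partner of HSPA14. None of the 29 was called without crosslinked CASC3 B. In treated CASC3 against treated RNPS1, DNAJA2 (2.35), DNAJC7 (1.79), DNAJA1 (1.5) and the exchange factor HSPBP1 (1.87) were the 4 of 29 called higher and none was lower, against 6.42% of all transcripts higher and 7.69% lower. Against RNA-seq, 5 co-chaperones were higher and 8 lower of 28 in CASC3, and 9 higher and 10 lower in RNPS1. Of all transcripts 27% were higher and 24.1% lower in CASC3, and 32.1% and 29.6% in RNPS1, so these counts were near those over all transcripts. ST13, an adaptor that binds HSP70, was among those lower in both, at -2.10 and -2.29.

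Of 11 other intronless genes tested, 6 fell with cycloheximide in CASC3 and none rose, against 15.8% of all transcripts lower and 16% higher, with a median of -1.62. Among the 6 were SOX12 (-3.20), PURA (-2.31), CEBPB (-2.25) and PURB (-1.62). All 11 were called lower without RNPS1 with cycloheximide B, and 1 without crosslinked CASC3 B. Over all 243 single-exon coding transcripts, 75 fell and 1 rose, with a median of -1.38, against 1740 that fell and 2232 that rose of 12591 multi-exon ones, with a median of 0.22. HSPA1B therefore lay further down than the median of its class, and no test of that difference was made. In crosslinked RNPS1 none of the 11 was called in edgeR, with a median of 0.30 and a smallest adjusted p of 0.418, for RHOB. Leaving out RNPS1 with cycloheximide B turned that median to -0.58, so the direction in RNPS1 depends on that library. Against RNA-seq, 7 of 11 were lower in CASC3 and 7 in RNPS1, where 24.1% and 29.6% of all transcripts were lower. Of 215 single-exon coding transcripts 128 were lower in CASC3 and 170 in RNPS1. PURA, PURB, SOX4 and KCTD12 had the smallest p in both.

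In 4 spliced members a smaller share of counts in the first exon passed the test of exon use in treated CASC3. The use of exons within a transcript differed with cycloheximide in CASC3 for 4 of the 7 members, against 35.4% of 10717 transcripts tested (edgeR diffSpliceDGE with the Simes method). They were HSPH1, HSPA14, HSPA8 and HSPA4 (adjusted p = 7.71e-05, 0.00427, 0.0104 and 0.0121). In each of the 4 the first exon was the only exon called, and it was lower, as were 40.4% of all tested first exons. HSPH1 had 11 and 9 counts in its first exon in CASC3 libraries A and B with cycloheximide, 0.818% and 0.721% of its counts, against 7 and 27 counts, 12.5% and 71.1%, in those without it. Relative to the transcript the first exon fell by 3.97 in HSPH1, 2.82 in HSPA14, 2.55 in HSPA4 and 2.40 in HSPA8 on the log2 scale (edgeR adjusted p = 5.44e-05, 0.00351, 0.00744 and 0.0104). No member was called without treated CASC3 A or B or when each group had to average at least 10 counts for an exon, and 1 to 2 members were called without crosslinked CASC3 B or A.

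HSPA14 had 2.72% and 3.08% of its counts in exon 1 in treated CASC3 libraries A and B, from 21 and 25 counts, against 53.6% and 40.0% in untreated ones, from 15 and 4 counts. For HSPA4L and HSPA9 the first exon gave -2.23 and -1.84 and did not pass (edgeR adjusted p = 0.0830 and 0.0740). Over all transcripts with at least 20 counts, the median share of the first exon was 1.32% and 1.15% in treated CASC3 libraries, against 10.7% and 9.57% in untreated ones, so the members moved with the library as a whole. In RNPS1 no member and 0% of transcripts were called, in edgeR, and HSPH1 exon 1 had the smallest p among the members' first exons (-1.76, unadjusted p = 0.0131). In the native MAGOH-RNPS1 library, exon 1 held 94 of the 135 HSPA14 counts.

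**Figure D4:**
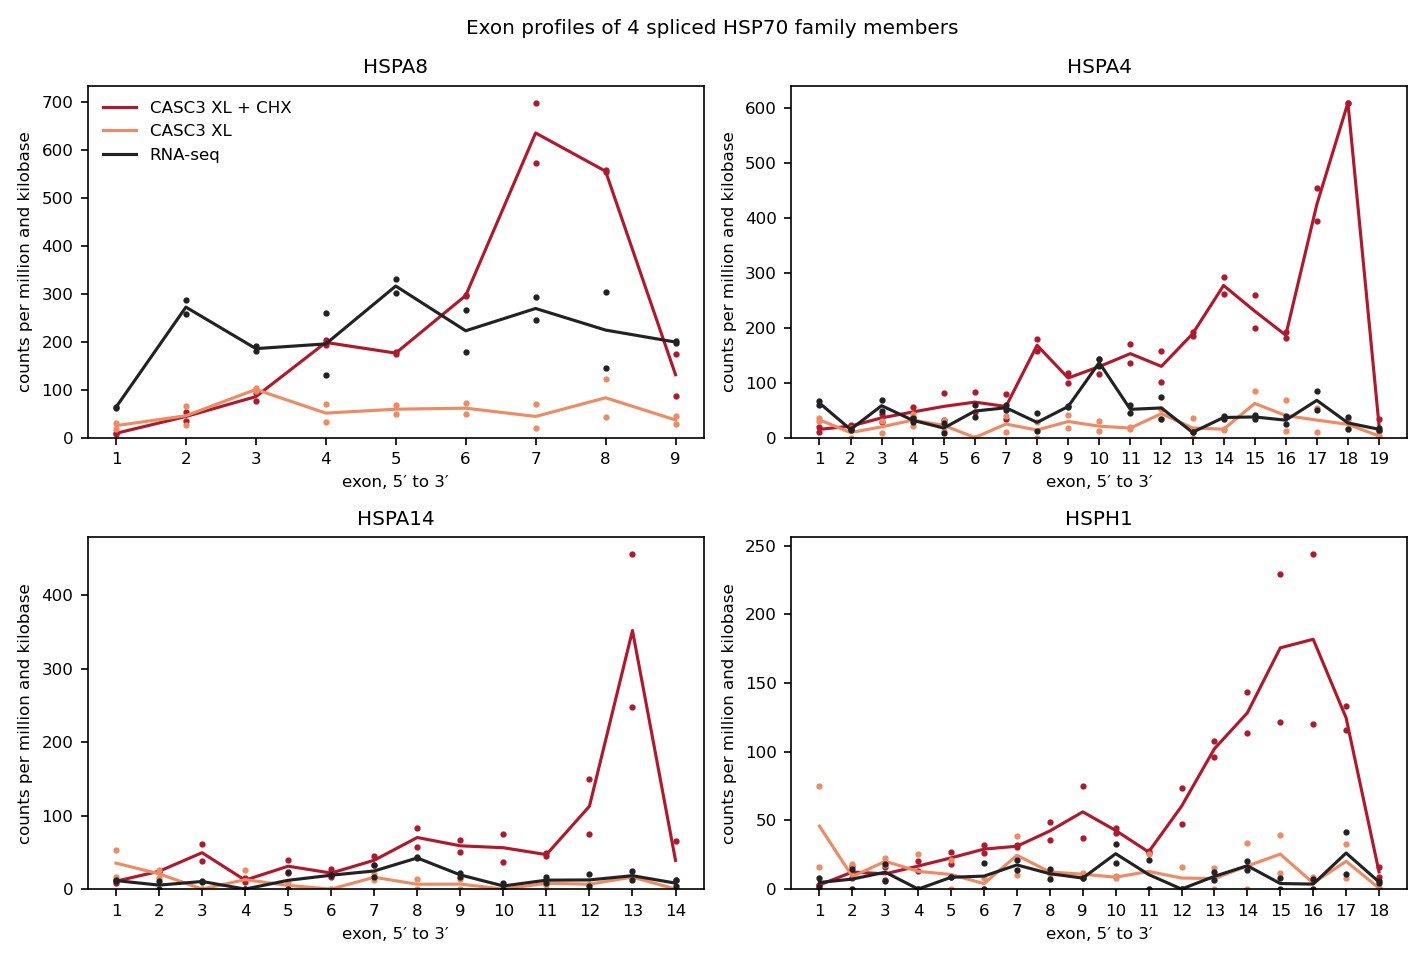
CPM per kb of exon along the exons of HSPA8, HSPA4, HSPA14 and HSPH1, from the first exon at the left to the last at the right; points are single libraries, lines join the means of libraries A and B, XL is crosslinked and CHX is cycloheximide. With cycloheximide the CASC3 profile (dark red) is highest in exon 7 of HSPA8, exon 18 of HSPA4, exon 13 of HSPA14 and exon 16 of HSPH1 and lower in the last exon of each.

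A shift of internal counts toward the 3′ end passed in HSPA8 alone, and that call rests on how its middle exon is treated. Internal exons, those between the first and the last, were divided into a 5′ side and a 3′ side with equal numbers of exons for the 6 members with at least 4 of them. Where the number of internal exons is odd, in HSPA8, HSPA9, HSPA4 and HSPA4L, the middle exon was on neither side, and its counts were left out. The 3′ side of HSPA8 held 83.4% and 85.9% of these counts in CASC3 libraries A and B with cycloheximide, against 60.7% and 38.0% in those without it, while it makes up 52.7% of the length of both sides. Exon 5 of HSPA8, its middle exon, had 796 and 651 counts in the treated libraries, against 36 and 22 in the untreated ones, and as a share of all internal counts the 3′ side held 65.6% and 68.5%, against 43.2% and 26.4%. The change in HSPA8 was 2.45 ± 0.59 (log2 of the 3′ over the 5′ side, SE, edgeR adjusted p = 0.0246), and HSPA8 was the only member called, against 6.22% of 9400 transcripts called with a higher 3′ side. HSPH1, HSPA14, HSPA4, HSPA9 and HSPA4L had positive values of 1.96, 1.86, 1.40, 1.24 and 1.17 that did not pass, and the median over all transcripts was 0.98, with 82.0% above 0. With middle exons counted in the 5′ side HSPA8 had 1.91 and lost its call (edgeR adjusted p = 0.0541), and with them in the 3′ side it had 1.95 and kept it (edgeR adjusted p = 0.0407). HSPA8 also lost its call when any of the 4 CASC3 libraries or the 2 untreated RNPS1 libraries was left out (edgeR adjusted p of 0.0585 to 0.368). HSPA9, HSPA4 and HSPH1 gained one without either treated RNPS1 library, and 4 members passed when only the 2 compared groups were fitted.

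In RNPS1 the comparison of the sides gave 0 calls among 9400 transcripts, or 0%, in edgeR, and the smallest unadjusted p of a member was 0.195, for HSPH1. The interaction with protein likewise gave 0 calls, and HSPA8 had 1.97 ± 0.84 there (log2, SE, edgeR adjusted p = 0.261, unadjusted p = 0.0310). The treated RNPS1 libraries differed between themselves: the 3′ side held 48.4% to 68.0% of the counts on both sides for the 6 members in A, and in B 87.5% to 100% for 5 of the 6, from 1 to 52 counts there, with HSPA4L at 50% from 1 count on each side. Without treated RNPS1 A, HSPA9 (3.80) and HSPA4 (3.22) were called. Library medians over all transcripts were 44.1% in A and 45.8% in B. In native footprints HSPA8 had 77.5% to 88.0% of the counts on both sides in its 3′ side, where the library medians were 41.9% to 47.3%, and RNA-seq had 59.2% and 49.5%. These shares leave out its middle exon. As a share of all internal counts, the 3′ side of HSPA8 held 45.6% to 61.0% in native footprints. In RNA-seq libraries A and B it held 36.4% and 30.1%.

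**Figure D5:**
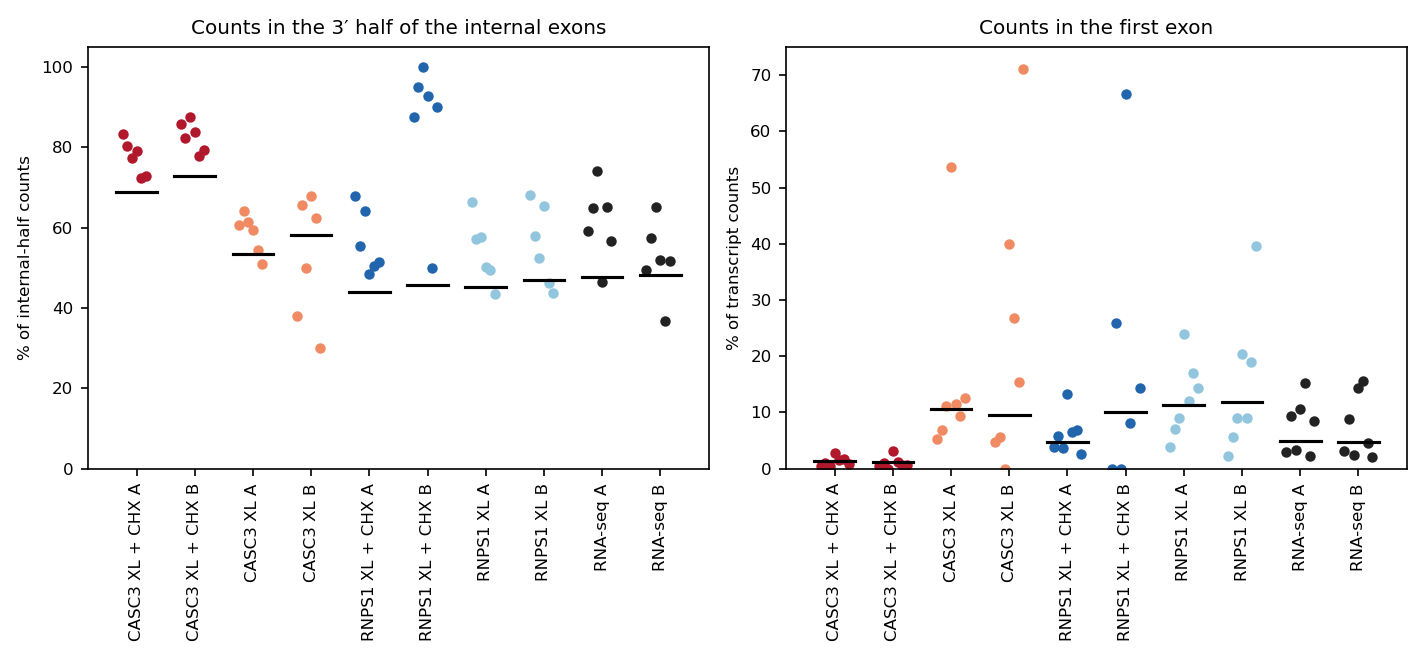
Share of the internal counts on both sides that lay in the 3′ side for 6 spliced members (left) and share of transcript counts in the first exon for 7 spliced members (right), in percent, in the 10 crosslinked and RNA-seq libraries; points are members, black bars are medians over all transcripts with at least 20 counts, XL is crosslinked and CHX is cycloheximide. In both treated CASC3 libraries the 6 members lie at 72.3% or more on the left and the 7 members at 3.08% or less on the right.

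The penultimate exon, which ends at the junction windows printed above, was the densest internal exon in treated CASC3 for HSPA4, HSPA14, HSPA9 and HSPA13. Here and below, exons were ranked on the pooled counts of libraries A and B, so the deeper library weighs more. HSPA4 exon 18 had 609 CPM per kb in each of CASC3 libraries A and B with cycloheximide, against 32.7 and 15.5 in those without it and 37.7 and 15.6 in RNA-seq. HSPA9 exon 16 had 879 and 960 with cycloheximide, against 97.7 and 26.8 without it, on the same scale. HSPA14 exon 13 had 248 and 456 with cycloheximide, from 142 and 217 counts, against 14.9 and 17.7 without it, from 1 count each. In HSPA8 exon 7 (572 and 699) came just before exon 8 (554 and 557), and in HSPA4L and HSPH1 exon 16 was densest and the penultimate exon ranked 4. In no member but HSPA13 was the penultimate exon the densest in untreated CASC3. That exception rests on 1 and 4 counts in libraries A and B, and in A exon 3 was denser (14.9 against 6.31 CPM per kb). In RNPS1 the penultimate exon was the densest in HSPA8, HSPA9 and HSPA13 with cycloheximide and in HSPA8 and HSPA13 without it. For HSPA8 with cycloheximide this did not hold in library B, where exon 7 had 183 CPM per kb from 17 counts, against 36.7 from 4 counts in exon 8. No test was made on these single internal exons beyond that of exon use, in which none of them was called with cycloheximide.

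The last exons of HSPA4L, HSPA9, HSPH1 and HSPA8 held a smaller share of counts in every footprint library than in RNA-seq, in HSPA8 by little, with at most 14.8% against 14.9% and 16.1%, while HSPA13, HSPA14 and HSPA4 overlapped with it in some libraries. HSPA4L, whose last exon of 8051 nt makes up 74.6% of its length, had 5.66% and 15.4% of its counts there in crosslinked CASC3 libraries A and B and 6.92% and 4.76% in crosslinked RNPS1, against 64.0% and 63.4% in RNA-seq. Native libraries held 3.08% to 8.62%. In HSPA13, where the last exon makes up 79.5% of the length, footprints kept 25% to 85.7% of counts there in native libraries, on at most 28 counts, and 55.6% and 25% in crosslinked CASC3, against 79.8% and 82.7% in RNA-seq. The native MAGOH-EIF4A3 and CASC3-EIF4A3 values of HSPA13, 85.7% and 83.3%, lay above both RNA-seq libraries. For HSPA14 the share was 14.6% in treated CASC3 A, against 7.89% and 3.57% in RNA-seq, and for HSPA4 it was 27.6% in treated RNPS1 B, from 24 of 87 counts, against 18.6% and 22.5% in RNA-seq. Only 4 members had enough exon counts for the exon use test against RNA-seq, and HSPH1 was called in CASC3 (adjusted p = 0.0101) and HSPH1 and HSPA9 in RNPS1 (adjusted p = 0.0232 and 0.00262, edgeR), against 43.7% and 56.5% of 5859 transcripts. The call in CASC3 was lost without RNA-seq A, with only the compared groups fitted, and when each group had to average at least 10 counts for an exon.

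In crosslinked CASC3 against RNA-seq, exon 18 of HSPH1, its last exon, was lower (-2.38) and its exon 1 higher (1.87, log2, edgeR adjusted p = 0.0160 and 0.0346). These were the only 2 of its 18 exons tested against RNA-seq with either protein, so each value is relative to the other exon and not to the whole transcript, and they are 1 difference, not 2. Of all tested last exons 20.7% were lower there, and of first exons 28.4% were higher. The last exon of HSPA9, exon 17, was lower in crosslinked CASC3 (-0.96) and in crosslinked RNPS1 (-1.36, log2, edgeR adjusted p = 0.0493 and 0.00104), the RNPS1 call against 47.5% of tested last exons. Exon 3 of HSPA9 was higher in RNPS1 by 1.59 (edgeR adjusted p = 0.00289), against 12.5% of all tested exons. HSPA9 exon 17 is 1233 nt in the deposited table and 780 nt in GENCODE 29. In RNPS1 the penultimate exon 8 of HSPA8 was higher by 0.94 and exon 1 of HSPH1 by 1.67 (log2, edgeR adjusted p = 0.0281 and 0.0404), against 34.6% of tested first exons higher. As whole transcripts, HSPA8 did not pass the exon use test in RNPS1, nor did HSPA9 in CASC3 (edgeR Simes adjusted p = 0.0682 and 0.165). Their single exons there come from transcripts that were not called.

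The order of levels per kilobase differed with the library type. In RNA-seq HSPA8 was highest, with 236 and 215 CPM per kb, followed by HSPA9 (81.0 and 69.7) and HSPA1B (78.3 and 72.7), whose values interleave, and then by HSPA4 (32.0 and 35), HSPA13 (19.5 and 17.2), HSPA14 (17.4 and 12.4), HSPA4L (11 and 12) and HSPH1 (7.90 and 7.98), of which HSPA13 and HSPA14 overlap. In CASC3 with cycloheximide HSPA8 (219 and 211) and HSPA9 (184 and 174) led, HSPA4 (103 and 79.7) and HSPA14 (50.4 and 63.7) came next, and HSPA1B (8.66 and 6.04) lay beside HSPA13 (7.22 and 3.67) at the low end. In crosslinked CASC3 HSPA1B had 56.7 and 187, which overlapped the 64.9 and 44.0 of HSPA8. Log2 CPM patterns were correlated across the 10 groups and 9037 transcripts. Those most like HSPA1B were 3 spliced transcripts. They were the ribosomal protein gene RPL13 (Pearson r = 0.974), POMK (r = 0.947) and RAB1B (r = 0.946), a small GTPase of vesicle transport. Most like HSPA8 was GDI2 (r = 0.982), a regulator of such GTPases. GPN3 and the single-exon RP5-1014D13.2 came next (r = 0.955 for each). HSPA1A, near 0, was not matched. These correlations describe 10 points that share libraries and depth.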

How the data were processed

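The submitters' processing notes name cutadapt 1.16, TopHat2 2.1.1, bedtools and the build hg38, without the role of each tool. The annotation, the counting settings, the use of strand and the treatment of reads with several matches are, in the sources used here, not given. The deposited table holds raw read counts per exon and transcript, with no normalization by the authors. Of the transcript values, 99.97% equalled the sum of their exons, and 19 blank lines were left out. The members and lists were chosen with earlier results of these data known. The named genes were all members, up to 4 transcripts with the smallest p from each list, and the most similar transcripts for HSPA1A, HSPA1B and HSPA8.

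Tests used edgeR 4.0.16 (R 4.3.3) with filterByExpr at a minimum count of 10, TMM scaling, quasi-likelihood fits and Benjamini-Hochberg adjustment at 0.05, 1 fit over the 8 crosslinked libraries and 1 over crosslinked and RNA-seq libraries without cycloheximide. Exon use was tested with diffSpliceDGE. The comparison of the 3′ with the 5′ side of the internal exons, and exon use with cycloheximide, were chosen after seeing the data. The middle of an odd number of internal exons was left out of both sides. DESeq2 1.42.0 was an alternative, beside other scaling, no filter, a replicate block, only the compared groups, summed HSPA1A and HSPA1B, and each library left out. Native ratios added 2 prior counts. Intervals and floors cover counting error only, since whether PCR copies were removed is not stated. In simulated data with 13970 transcripts for cycloheximide in CASC3, 27.1% of changes of 2 and 81% of changes of 3 on the log2 scale were recovered. Of the calls there, 6.14% fell on unchanged transcripts. For the sides, 0% of changes of 1 and 6.86% of changes of 2 were recovered among 9231 transcripts. Sequences were read from GENCODE 29 transcripts in hg38, with Python 3.11.15.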

Additional observations from a re-analysis of the deposited data

How the results depend on the processing

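Of 953 member values under the alternatives, 831 kept direction and side of the threshold, 43 lost a call, 53 gained one and 26 reversed, none of which was called as reported. All 112 native ratios moved less than their error. DESeq2 size factors moved the median of all transcripts for cycloheximide in CASC3 to -0.05, against 0.06 with TMM. The causes of the changes below were not tested.

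For CASC3 against RNPS1 without cycloheximide, 80 called transcripts became 265 without the filter, 612 with only the 2 groups and 266 in DESeq2, each with 1 member in place of 0. With cycloheximide, 2017 transcripts and 4 members became 0 and 0 with only the 2 groups, and 7 members without the filter. For cycloheximide in RNPS1, 3 transcripts became 145 without the filter, 0 with only the 2 groups and 126 in DESeq2. For the interaction, 0 became 459 transcripts and 3 members without the filter and 390 and 3 in DESeq2. No paired design is stated and the A deviations correlated at 0.037 to 0.356 among crosslinked groups and -0.025 to 0.017 with RNA-seq, so letters were not taken as pairs. With a replicate block the counts were 148 transcripts and 1 member without cycloheximide, 3179 and 7 with it, 7 for cycloheximide in RNPS1, 177 and 2 for the interaction, and 2 members for exon use in CASC3 against RNA-seq, where 1 was reported.

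When each group had to average at least 10 counts for an exon, exon use gave 502 transcripts and 0 members in CASC3 against RNA-seq, against 2563 and 1 as reported, 675 and 1 in RNPS1 against RNA-seq, against 3313 and 2, and 352 and 0 for cycloheximide in CASC3, against 3795 and 4. With only the compared groups, exon use gave 0 members in CASC3 and 5 in RNPS1 against RNA-seq, and the 3′ against 5′ sides for cycloheximide in CASC3 gave 2566 transcripts, against 596, and 4 members, against 1. With the middle exon in the 5′ side, a choice made after seeing the data, the sides for cycloheximide in CASC3 gave 477 transcripts and 0 members, and with it in the 3′ side 543 and 1.

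Leaving out 1 library at a time gave 0 to 795 transcripts and 0 to 1 members for CASC3 against RNPS1, and 0 to 5011 and 0 to 7 with cycloheximide. Cycloheximide gave 356 to 7030 and 1 to 7 in CASC3 and 0 to 2033 and 0 to 1 in RNPS1, and the interaction 0 to 3474 and 0 to 6. Against RNA-seq the counts were 3839 to 6667 and 3 to 6 in CASC3 and 5423 to 8304 and 4 to 5 in RNPS1. Exon use gave 482 to 2855 and 0 to 2 in CASC3 and 1748 to 4484 and 1 to 4 in RNPS1 against RNA-seq. With cycloheximide it gave 0 to 6238 and 0 to 6 in CASC3, and 0 to 1609 and 0 to 1 in RNPS1. The sides gave 0 to 2691 and 0 to 4 in CASC3, 0 to 1230 and 0 to 2 in RNPS1, and 0 to 1523 and 0 to 2 for the interaction. A group left with 1 library was assumed to vary like the others.

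Signs turned for the interaction of HSPA13 (-0.0182 with DESeq2 size factors), HSPA4 in CASC3 against RNPS1 (-0.0187 without the filter, -0.0048 with the block) and HSPH1 in RNPS1 against RNA-seq (0.0244 without the filter). With 1 library left out, CASC3 against RNPS1 ranged from -0.37 to 0.15 for HSPA4L and -0.34 to 0.32 for HSPA4, and CASC3 against RNA-seq from -0.48 to 1.55 for HSPA1B. Cycloheximide in RNPS1 ranged from -0.37 to 1.67 for HSPA13, -0.93 to 1.37 for HSPA4L, -0.0944 to 0.27 for HSPA9, -0.34 to 0.69 for HSPH1, -0.77 to 0.14 for HSPA1B and -2.46 to 0.90 for HSPA14, and the interaction of HSPA13 from -0.83 to 1.13. The sides in RNPS1 ranged from -0.13 to 3.80 for HSPA9 and -0.57 to 3.22 for HSPA4, and their interaction from -2.56 to 1.37 for HSPA9, -1.79 to 2.00 for HSPA4, -1.63 to 1.98 for HSPH1 and -4.04 to 1.76 for HSPA14.

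Depth limits RNPS1 with cycloheximide B, where HSPA13 had 2 counts, and exon shares in crosslinked CASC3, where HSPA14 had 28 and 10 counts.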
